A study of Mus musculus with 2 samples.

Results

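The AP-1 genes studied here are 10 genes of basic leucine zipper (bZIP) transcription factors, taken from the 53801 genes listed for each sham microglia library by matching their Ensembl identifiers to gene symbols. They are Fos, Fosb and Fosl2 (the FOS genes), Jun, Junb and Jund (the JUN genes), Atf3, Maff, and Batf and Batf3 (the BATF genes). Microglia were sorted as CD11c–Ly6G–CD11b+CD45low cells from the left brain hemisphere of Cx3cr1(CreER/wt) mice on a C57BL/6 background, 3 days after sham surgery. In these mice a tamoxifen-inducible Cre sits at 1 Cx3cr1 allele and is driven by its promoter, which is active in microglia and in other CX3CR1+ cells. No floxed allele is given for them, and they stand as wild-type (WT) controls in the study. The mice were male and 8 to 10 weeks old by the series' design, though the study's methods give an older range and both sexes. They received tamoxifen at 75 mg/kg a day for 4 days, with the first dose 14 days before surgery, while the treatment label reads none and the sham operation is named in the titles. Each of the 2 libraries came from 1 mouse, and both belong to 1 group. The MCAO libraries were not analysed here, so no condition was compared and no p-value is given.

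AP-1 is a dimer of bZIP proteins. FOS proteins bind DNA only with a partner, most often a JUN protein, while JUN proteins can also pair with each other. Many of these genes are immediate early genes, which are transcribed within minutes of a stimulus without new protein synthesis and whose mRNAs are short-lived. Enzymatic dissociation of brain tissue is known to induce them in microglia. The suspensions here were made with an enzyme kit on a heated dissociator, and transcripts made in the tissue and transcripts made during isolation cannot be told apart in these libraries.

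The libraries held 23381026 counts (library 1) and 41142609 counts (library 2). A count of 0 allows about 3 counts (1-sided 95% Poisson limit), which correspond to 0.128 CPM and 0.0729 CPM. The count intervals given below are 2-sided. CPM are counts scaled to 1000000 counts on genes. Since PCR copies of a molecule are counted apart, the intervals and limits describe counting error alone. The 9 microglia markers were counted in both libraries and summed to 36316.5 and 41305.9 CPM. The 14 neutrophil markers summed to 4800.05 and 58612.5 CPM, the highest mean being that of Ngp (749 and 16031 CPM), although the gate left out Ly6G+ cells. In library 2, 13 of the 14 were more than 2-fold higher, where 5.74% of all genes counted in both libraries were. None of the 14 was at 0 in either library. For basophils or mast cells, the 6 markers summed to 6 counts in library 1, with 4 of them at 0 (Prss34, Mcpt8, Fcer1a and Ms4a2), and to 6936 counts in library 2, led by Prss34 (4743 counts). Border macrophage markers had a lower sum in library 2 (662 and 279 CPM for 6 genes), led by F13a1 (225 and 64.7 CPM). More than 2-fold lower were 3 of the 6, Mrc1, Cd163 and F13a1, where 25.9% of all genes counted in both libraries were. The log2 ratios (library 2 over library 1) of Lyve1, Pf4 and Cbr2 were −0.41, −0.31 and −0.23, near the median of −0.26 for all counted genes. Fewer cells of a type and less RNA per cell cannot be told apart in such bulk libraries.

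AP-1 transcripts were abundant in both sham libraries. The 10 genes together held 215074 counts in library 1 and 491987 counts in library 2. This was 0.920% of all counts in library 1 (95% Wilson interval 0.916% to 0.924%) and 1.20% in library 2 (1.19% to 1.20%), or 10578 ± 1951 CPM (SD, n = 2 libraries). Fos, Jun, Junb and Atf3 made up 97.5% of the AP-1 counts in library 1 and 99.3% in library 2, so the other 6 genes added little to the sum.

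To show what the start sites of the 4 abundant members hold, the 120 bases before the RefSeq start of each are given here 5′ to 3′ on the strand of the gene (RefSeq, GRCm38.p6). Capitals mark matches on either strand to TGACG (the core of a cAMP response element, CRE), TGACNTCA (a CRE or the CRE-like site at which JUN can act) and TATAAA, the usual core of the TATA box.
Fos, chr12:85473770-85473889, strand +: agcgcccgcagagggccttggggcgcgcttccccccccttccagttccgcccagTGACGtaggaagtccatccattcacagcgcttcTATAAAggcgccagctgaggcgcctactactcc
Jun, chr4:95052223-95052342, strand -: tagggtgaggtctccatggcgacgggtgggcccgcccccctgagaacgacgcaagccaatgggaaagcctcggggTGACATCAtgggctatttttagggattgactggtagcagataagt
Junb, chr8:84978749-84978868, strand -: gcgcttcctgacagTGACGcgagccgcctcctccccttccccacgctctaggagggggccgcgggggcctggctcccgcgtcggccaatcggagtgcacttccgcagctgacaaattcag
Atf3, chr1:191183334-191183453, strand -: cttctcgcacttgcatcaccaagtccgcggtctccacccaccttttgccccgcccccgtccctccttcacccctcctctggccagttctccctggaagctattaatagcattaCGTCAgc
In Fos the core TGACG began 66 bases and the TATA box 33 bases before the start. In Jun the match TGACATCA began 45 bases before it. In Junb the core began 106 bases before the start, and TATAAA began at the start itself, beyond the bases shown. In Atf3 the core lay on the opposite strand, 7 to 3 bases before the start. RefSeq gave 12 promoters, from 250 bases before to 50 after a start, for the 10 genes. TGACG was found in 7 of the 12, against 20.8% of all 32851 promoters, TGACNTCA (which includes TGACGTCA and so overlaps with TGACG) in 3, against 8.83%, and TATAAA in 2, against 13.6%. The GC box GGGCGG was found in 9 of the 12, against 35.7%. Maff has several of the 12 windows, so its matches to TGACG, TGACNTCA and GGGCGG were counted repeatedly. By gene, TGACNTCA was found in Jun and Maff alone. The AP-1 site TGANTCA and the CArG box bound by serum response factor were found in none of the 12, against 7.81% and 1.63%. No match says only that these letters are not in this window. The RefSeq start of Junb lies 30 bases and that of Jund 1210 bases before the start of the counted gene. That of Atf3 lies 34706 bases inside the counted gene. No match of any of the 6 motifs was found in the Jund window.

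**Figure D1:**
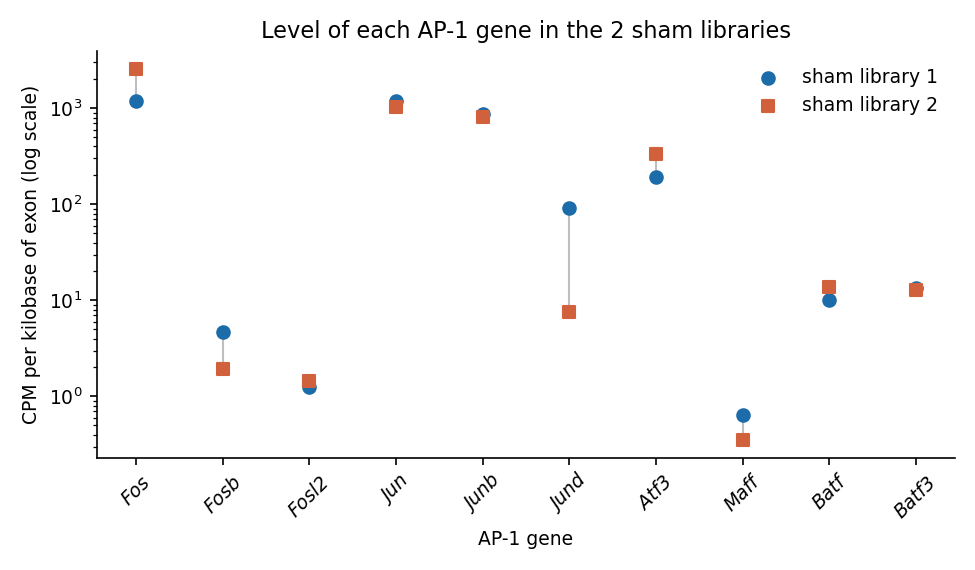
Level of each AP-1 gene (x axis) as CPM per kilobase of merged exons (y axis, log scale) in sham library 1 (circles) and sham library 2 (squares), with a line joining the 2 values of a gene. Fos, Jun, Junb and Atf3 lie above 190 in both libraries, and Jund has the longest line, from 91.6 to 7.53.

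To order the members, their CPM were divided by the length of their merged exons. Fos had the highest level in both libraries, with 1184 CPM per kilobase in library 1 and 2543 in library 2. Jun followed with 1179 and 1039 CPM per kilobase, and Junb with 872 and 814. Fos and Jun were level in library 1, where their ratio per kilobase was 1.00, and apart in library 2, where it was 2.45. Atf3 had 192 and 332 CPM per kilobase, Jund 91.6 and 7.53. The 2 values of each of Jun, Junb and Atf3 overlapped with those of no other member. Batf3 (13.3 and 12.95 CPM per kilobase) and Batf (9.98 and 13.9) overlapped with each other, and both lay within the range of Jund. Fosb (4.71 and 1.92), Fosl2 (1.25 and 1.45) and Maff (0.643 and 0.356) came last in that order in both libraries. Jund and Batf were the 2 genes whose place in the order differed between the libraries. A gene was called counted where each library gave it 10 counts or more, and among all 13445 counted genes Fos ranked 33rd per kilobase in library 1 and 20th in library 2. Jun ranked 34th and 45th, and Junb 43rd and 58th. Maff stood at the other end, above 15.9% and 12.9% of the counted genes.

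Overlapping genes limit some of these levels, because the sources used here do not say whether reads were counted by strand. Of the 1668 exon bases of Jund, 877 (52.6%) are shared with exons of the antisense gene Gm11175, which had 0 counts in both libraries. Jun shares 232 exon bases with the antisense gene Junos (107 and 176 counts), and Junb shares 173 with Prdx2 (2321 and 4525 counts). With lengths restricted to unshared bases, an alternative chosen after seeing the data, Jun came before Fos in library 1 (1272 against 1184 CPM per kilobase). Jund then came level with Atf3 there (193.1 against 192.2), and the places of 6 members in place of 2 differed between the libraries.

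Within AP-1, JUN genes held the larger share of counts in library 1 and FOS genes in library 2. The JUN genes took 64.4% of the AP-1 counts in library 1 (95% Wilson interval 64.2% to 64.6%) and 43.5% in library 2 (43.3% to 43.6%). The FOS genes took 30.7% (30.5% to 30.9%) and 50.2% (50.1% to 50.4%). Counts of FOS genes were 0.478 times those of JUN genes in library 1 and 1.16 times in library 2. Over both libraries the shares were 53.9 ± 14.8% for JUN genes and 40.5 ± 13.8% for FOS genes (SD, n = 2), so the difference between these means was smaller than the spread between mice. Atf3 took 4.50% and 5.97% of the AP-1 counts, the BATF genes 0.384% and 0.336%, and Maff 0.0181% and 0.00772%. The FOS sum was the one that differed more, at 2827 and 6006 CPM, while the JUN sum was 5921 and 5197 CPM.

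**Figure D2:**
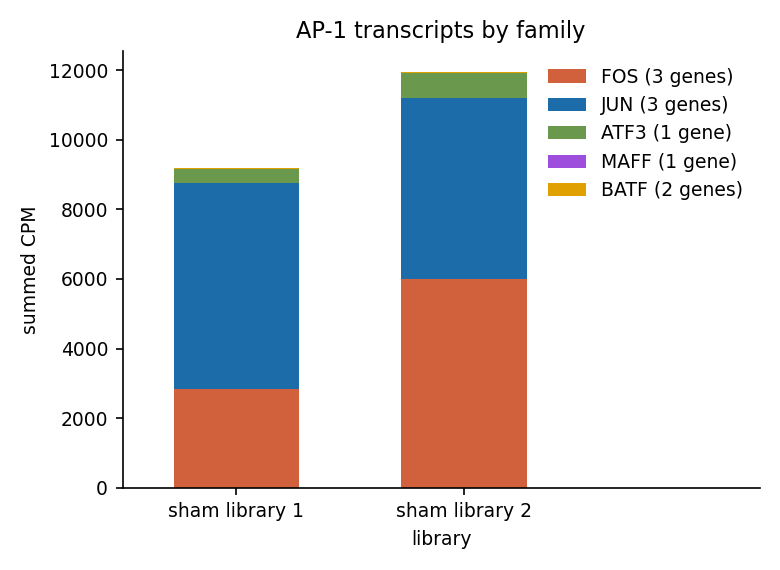
Summed CPM of the AP-1 genes (y axis) in each sham library (x axis), stacked by family. The JUN segment is the larger one in library 1 (64.4% of the bar) and the FOS segment in library 2 (50.2%), while the MAFF and BATF segments are too thin to see.

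Among the FOS genes, Fos had by far the highest level per kilobase. It is the prototype of the family and an immediate early gene (chromosome 12 of GRCm38, 85473890 to 85477273, 4 exons in its longest transcript). The libraries gave it 65131 and 246033 counts, or 2786 and 5980 CPM (mean 4383 ± 2259, SD, n = 2). Library 2 was the higher one, by 2.15-fold (log2 ratio 1.10, 95% exact interval for counting error 1.09 to 1.11), and 678 of the 13445 counted genes had a larger ratio. Fosb, a related partner of JUN proteins that is also induced early (chromosome 7, 19302696 to 19310051), went the other way. It had 688 and 493 counts, or 29.4 and 11.98 CPM (20.7 ± 12.3), and was 2.46-fold lower in library 2 (log2 ratio −1.30, interval −1.47 to −1.13). Fosl2, which encodes FRA-2 (chromosome 5, 32135801 to 32157842), had 282 and 578 counts, or 12.1 and 14.05 CPM (13.1 ± 1.41), which differed by 1.16-fold. Per kilobase of merged exons, Fos was 251 times Fosb in library 1 and 1325 times Fosb in library 2. These ratios depend on the length used. Per kilobase of the longest transcript, Fos had 1321 and 2837 CPM and Fosb 7.78 and 3.17 CPM.

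The JUN genes each have 1 exon in their longest transcript, and Jun and Junb differed least between the libraries among the 4 members with most counts. Jun (chromosome 4, 95049034 to 95052222) had 87919 and 136267 counts, or 3760 and 3312 CPM (3536 ± 317). Junb (chromosome 8, 84974484 to 84978718), whose protein can restrain JUN activity, had 46938 and 77026 counts, or 2008 and 1872 CPM (1940 ± 95.7). Both were slightly lower in library 2 on the CPM scale (log2 ratios −0.18 and −0.10) and slightly higher when scaled by TMM (0.07 and 0.16), so their direction depended on the scaling. Jund (chromosome 8, 70698949 to 70700616), usually the most constant JUN gene of resting cells, had the widest difference of the 10. The libraries gave it 3571 and 517 counts, or 153 and 12.6 CPM (82.6 ± 99.1), and it was 12.2-fold lower in library 2 (log2 ratio −3.60, interval −3.74 to −3.47). A lower ratio was found for 41 of the 13445 counted genes. Per kilobase, Junb was 9.53 times Jund in library 1 and 108 times Jund in library 2.

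Atf3, a stress-induced factor that often acts as a repressor (chromosome 1, 191170296 to 191218039), had 9680 and 29382 counts, or 414 and 714 CPM (564 ± 212). Library 2 was 1.72-fold higher (log2 ratio 0.79, interval 0.75 to 0.82). Maff, a small MAF protein without a transactivation domain (chromosome 15, 79346621 to 79359076), was the lowest member. It had 39 and 38 counts, or 1.67 CPM (95% exact Poisson interval 1.19 to 2.28) and 0.924 CPM (0.654 to 1.27). These intervals overlap slightly, and the log2 ratio of −0.85 had an interval of −1.54 to −0.17. Batf (chromosome 12, 85686669 to 85709087) and Batf3 (chromosome 1, 191097847 to 191108945) encode short factors that bind DNA with JUN proteins and with IRF4 or IRF8, and Batf3 is known for its role in conventional dendritic cells. Batf had 328 and 802 counts, or 14.03 and 19.5 CPM (16.8 ± 3.86), and was higher in library 2 (log2 ratio 0.47, interval 0.29 to 0.66). Batf3 had 498 and 851 counts, or 21.3 and 20.7 CPM (20.99 ± 0.43), and its log2 ratio of −0.04 had an interval that spans 0 (−0.20 to 0.12). Of the BATF partners, Irf8 had 23382 and 24288 counts, or 1000.04 and 590.3 CPM, and Irf4 had 132 and 118 counts, or 5.65 and 2.87 CPM. Markers of conventional dendritic cells, which the CD11c gate should leave out, had a lower sum in library 2 (92.7 and 32.5 CPM for 6 genes). Flt3 alone had a higher CPM in library 2 (4.15 and 4.81). The log2 ratio intervals of Xcr1 (38 and 52 counts, −0.99 to 0.28) and Clec9a (9 and 10 counts, −2.12 to 0.81) span 0. Most of that sum was Wdfy4 (71.5 and 20.1 CPM), and the part of such cells in the level of Batf3 was not tested.

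Some members are neighbours in the genome. Batf3 and Atf3 lie on chromosome 1 with 61350 bases between them, and Fos and Batf on chromosome 12 with 209395 bases between them. Levels within each pair were far apart, with Fos at 1184 and 2543 CPM per kilobase against 9.98 and 13.9 for Batf, and Atf3 at 192 and 332 against 13.3 and 12.95 for Batf3.

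The spread of the members between the mice was then set beside that of all counted genes. All 10 members were counted in both libraries. More than 2-fold apart were 3 of the 10, Fos, Fosb and Jund, where 31.7% of all counted genes were. By direction, 1 of the 10 was higher in library 2, where 5.74% of all counted genes were, and 2 of the 10 were lower, where 25.9% were. More than 4-fold apart was 1 of the 10, Jund, where 8.91% of all counted genes were (2.04% higher and 6.87% lower). Shares this near the background are no result about the members. The median log2 ratio was −0.07 for the members and −0.26 for all counted genes, and the median size of the ratio was 0.63 and 0.60. Scaling by TMM or DESeq2 size factors moved the median of all counted genes to −0.01 and 0.01, and Atf3 then was a further member past 2-fold (log2 ratios 1.04 and 1.06). With these scalings 8.87% and 9.28% of counted genes were more than 2-fold higher and 19.4% and 19.0% lower. Jun, Junb and Batf3 were then above 0, at 0.07, 0.16 and 0.22 with TMM.

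**Figure D3:**
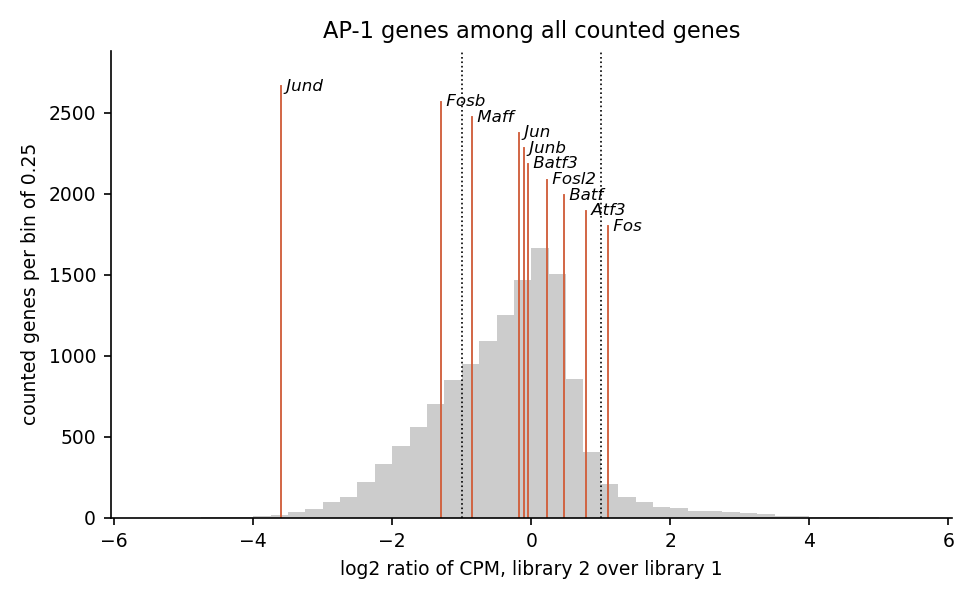
Number of counted genes (y axis) by log2 ratio of CPM, library 2 over library 1 (x axis, bins of 0.25, grey), with a line at the ratio of each AP-1 gene and dotted lines at 2-fold. The members spread over the body of the distribution, with Jund at −3.60 in its lower tail and Fos at 1.10 above most genes.

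Length and base composition moved with the ratio between the libraries. Over 10 bins of merged exon length, the median log2 ratio was 0.13 for genes of 1274 to 2026 bases and −0.90 for genes of 9427 bases or more. Over 10 bins of GC content it was −0.13 in the lowest bin and −0.64 in the highest, above 57.3% GC. Fosb, with 6243 exon bases, lay in a length bin with a median of −0.62, and after subtraction of the median of the genes alike in GC content and length its log2 ratio turned from −1.30 to 0.26. Fosl2, with 9680 exon bases, moved from 0.22 to 1.60. Fos, with 2352 exon bases and 51.9% GC, moved little, from 1.10 to 1.02. Jund is short and the richest in GC of the members, with 67.1%, more than in 99.8% of the counted genes, and its adjusted log2 ratio was −3.56. Its GC bin runs from 57.3% to 74.0%, so the adjustment does not set Jund beside genes of its own GC content alone. Junb, with 62.6% GC, more than in 99.1% of the counted genes, had a ratio of −0.10 and an adjusted one of 0.16. Of the 14 neutrophil markers, 13 were higher in library 2, as Fos and Atf3 were, and Csf3r was lower (517 and 354 CPM, log2 ratio −0.55). The part of length, base composition and other cells in these differences was not tested beyond these values.

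**Figure D4:**
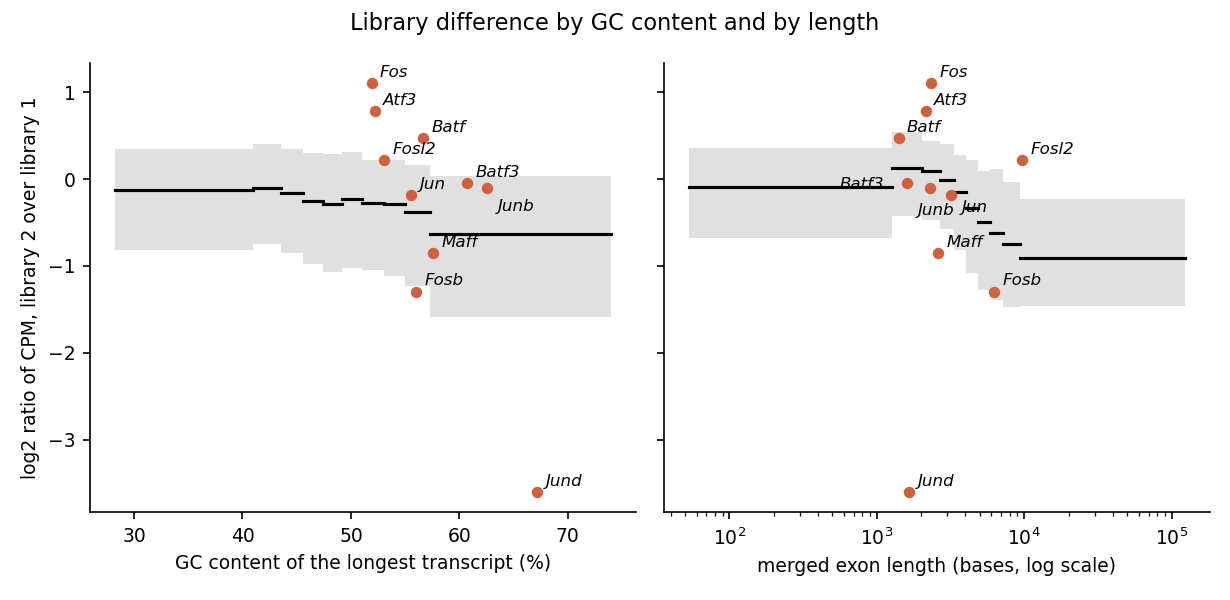
Log2 ratio of CPM, library 2 over library 1 (y axis), of the AP-1 genes (points) by GC content of the longest transcript (left) and by merged exon length (right, log scale). Black lines are the medians and grey bands the quartiles of all counted genes in 10 bins. The medians fall from 0.13 to −0.90 between the second and the last length bin. Jund (−3.60) lies below both bands, and Fos (1.10) and Atf3 (0.79) lie above both.

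Other bZIP factors, among them dimer partners of AP-1, were set beside the members. Of 16 such genes, 15 were counted in both libraries, 1 was more than 2-fold higher in library 2 and 2 were lower, beside 5.74% and 25.9% of all counted genes. Their median log2 ratio was −0.29, and it was −0.04 with TMM and 0.21 after the adjustment for GC content and length. After that adjustment 1 gene was more than 2-fold higher and 1 lower, beside 9.48% and 14.5% of all counted genes. Nfe2l2, which encodes NRF2, had 310 and 418 CPM, Maf 170 and 135 CPM, and Atf4 119 and 137 CPM. Nfe2, known from the megakaryocyte and erythroid lineages, was the 1 higher gene, with 15.7 and 135 CPM (log2 ratio 3.10), and the part of the cells whose markers were higher in library 2 was not tested. Nfe2l1 (104 and 18.1 CPM, log2 ratio −2.52) and Atf7, a relative of ATF2 (32.4 and 10.2 CPM, log2 ratio −1.67), were the 2 lower ones. The other small MAF genes, Mafg (92.7 and 75.6 CPM) and Mafk (43.4 and 41.1 CPM), were less than 2-fold apart, as Maff was. Bach1, which pairs with small MAF proteins, had 70.4 and 40.0 CPM, Bach2 21.1 and 16.9, Atf2 43.1 and 33.1, Ddit3 24.3 and 33.8, Jdp2 5.56 and 4.18, and Batf2 2.57 and 3.69. Fosl1, the fourth FOS gene, had 8 and 152 counts, or 0.342 and 3.69 CPM, and was not counted in both.

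The 10 factors listed as acting on the promoters of FOS and JUN genes all had a lower CPM in library 2 before any adjustment, though the log2 ratio of Mef2c (−0.17) is smaller than the shift of the median from −0.26 to −0.01 that TMM brings. Their median log2 ratio was −0.9998, with 5 of the 10 more than 2-fold lower, beside 25.9% of all counted genes. Serum response factor (Srf), which drives Fos through its serum response element, had 394 and 149 counts, or 16.9 and 3.62 CPM. Its cofactors Elk1 (4.19 and 2.94 CPM), Elk3 (75.2 and 58.1), Elk4 (34.6 and 16.2), Mrtfa (52.3 and 16.6) and Mrtfb (12.5 and 6.71) were lower in library 2 as well. Mef2c, a factor of microglia, had 648 and 576 CPM, Mef2a 425 and 162, Mef2d 105 and 17.9, and Creb1 54.7 and 33.0. The 5 genes past 2-fold were Srf, Elk4, Mrtfa, Mef2a and Mef2d. After the adjustment for GC content and length the median of this list was −0.28. Srf alone of the 10 was then more than 2-fold lower (log2 ratio −1.75), where 14.5% of all counted genes were. Elk1, Mrtfb and Mef2c were then above 0 (0.15, 0.06 and 0.21).

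Of 20 kinase genes upstream of AP-1, 19 were counted in both libraries, 1 being more than 2-fold higher in library 2 and 8 lower (5.74% and 25.9% of all counted genes were), and the median log2 ratio was −0.35. After the adjustment for GC content and length the median was 0.06, with 2 genes more than 2-fold higher (9.48% of all counted genes were) and 5 lower (14.5% were). Map2k1, which encodes MEK1, had 220.1 and 229 CPM, Map2k2 had 170.4 and 155 CPM, and Mapk14, which encodes p38α, had 268 and 135 CPM. Mapk13, another p38 kinase, was the higher gene, with 4.15 and 41.1 CPM (log2 ratio 3.31). The 8 lower genes were Mapk3, Mapk11, Map2k4, Map2k7, Map3k1, Map3k5, Map3k7 and Braf, with log2 ratios from −2.48 for Map3k7 to −1.05 for Map2k4. Mapk10 had 1 and 10 counts.

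Known AP-1 targets stood higher in library 2 more often than lower. Of 23 target genes, 20 were counted in both libraries, 6 being more than 2-fold higher in library 2 and 2 lower (5.74% and 25.9% of all counted genes were), and the median log2 ratio was 0.67. After the same adjustment 6 were higher and 2 lower (9.48% and 14.5% of all counted genes were), and the median was 0.68. The higher genes were Mmp9, a gelatinase (109 and 1129 CPM), Plaur, the urokinase receptor (55.6 and 360 CPM), Vim (50.2 and 133 CPM), Cd44 (30.1 and 71.8 CPM), Cxcl2 (22.6 and 64.6 CPM) and Il6 (4.32 and 13.1 CPM). The lower ones were Plau (10.1 and 4.98 CPM) and Vegfa (2.99 and 0.826 CPM). The chemokine genes Ccl4 (436 and 690 CPM) and Ccl3 (255 and 423 CPM) were within 2-fold. Mmp9, Plaur and Cxcl2 are also transcribed in neutrophils, whose markers were higher in library 2 as given above. The part of neutrophils or other cells was not tested for any of the 6 higher genes. Mmp3 had 0 counts in both libraries, which by the limit defined above allows up to 0.128 and 0.0729 CPM. Mmp13 had 13 and 4 counts, and Timp1 had 2 and 14.

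**Figure D5:**
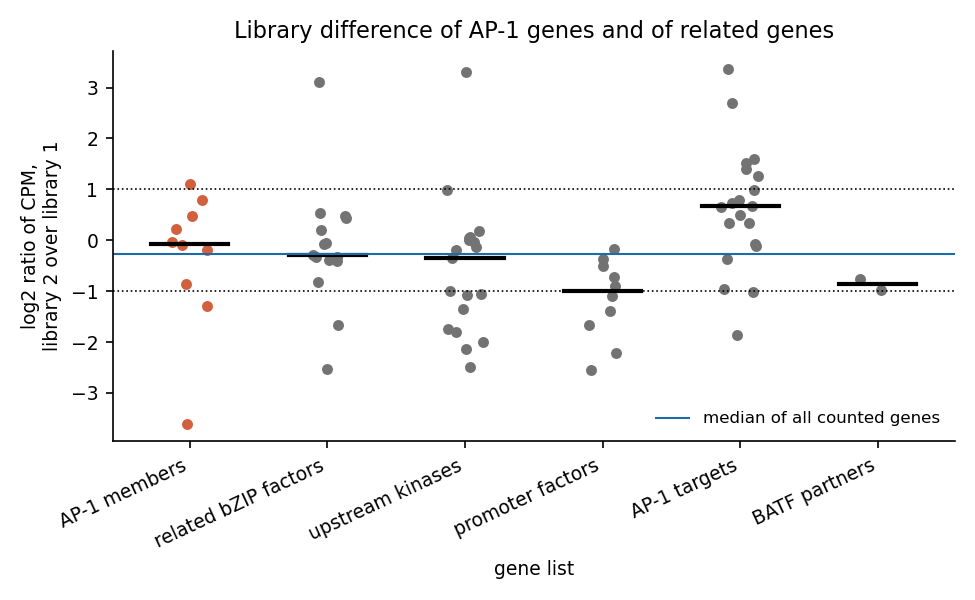
Log2 ratio of CPM, library 2 over library 1 (y axis), of the counted genes of each list (x axis), with black bars at the list medians, a blue line at the median of all counted genes (−0.26) and dotted lines at 2-fold. The promoter factors all lie below 0 on the CPM scale (3 of them lie above 0 after the adjustment for GC content and length), Mef2c (−0.17) by less than the shift that TMM brings, and the AP-1 targets have a median of 0.67.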

How the data were processed

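The authors extracted RNA from sorted cells, made cDNA with the SMART-Seq HT Kit and libraries by Nextera XT tagmentation, mapped paired-end reads with HISAT2 to GRCm38 and used HTSeq to count reads by Ensembl identifier. The deposited counts are raw, with no normalization. Versions, annotation release and strand setting are not given in the sources used here. The authors' DESeq2 comparison with MCAO was not used. Total counts were 23381026 and 41142609, so at an equal CPM library 2 has the smaller relative counting error. A gene with fewer counts in library 2, such as Jund (3571 and 517), has the larger relative error there. Having only 2 libraries limits every mean.

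Counts were scaled to CPM. Symbols from GENCODE M21 (GRCm38) matched 53620 of 53801 identifiers and all 10 members. Starts in the files, counted from 0, were raised by 1. Lengths, exons and GC content came from GENCODE M21. A gene with 10 counts or more in each library was called counted, and genes past 2-fold between the libraries were called apart. Because both libraries belong to 1 group, no test was run. Counts have exact Poisson, shares 95% Wilson and ratios exact binomial intervals. Members, lists and markers were chosen with earlier results of these data known. Named were all members, all related bZIP factors, promoter factors and BATF partners, and, of kinases and targets, the 3 with the highest mean CPM and those past 2-fold, with the 3 genes of at least 100 CPM nearest to Fos. Some named genes are not reported here. Mkl1 and Mkl2 were listed as Mrtfa and Mrtfb, and for Ddit3 the identifier with counts was used. The markers were those of microglia, neutrophils, basophils or mast cells, conventional dendritic cells, monocytes, border macrophages and B cells.

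Ratios were adjusted by the median of genes in the same of 10 GC and 10 length bins, or the same GC bin where fewer than 20 genes shared both, for the 13439 counted genes with both values. On simulated Poisson counts of these 13439 genes, 198 of 200 genes changed by 8-fold passed 4-fold before the adjustment. The simulation held no spread between mice and no PCR copies, so it checks the calculation only and says nothing about these libraries. Alternatives used edgeR 4.0.16 (TMM), DESeq2 1.42.0 size factors, other totals, filters, folds and lengths, and each library left out. Figures were drawn with matplotlib 3.10.9, and tables were handled with pandas 2.3.3 and scipy 1.17.1 under Python 3.11.15 (numpy 2.4.6), with R 4.3.3 for the scalings.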

Additional observations from a re-analysis of the deposited data

How the results depend on the processing

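No paired analysis was possible because both libraries belong to 1 group. With 1 library left out, a mean is the value of the other and stays within 1 SD, which says nothing about stability. The summed AP-1 level was then 9199 to 11958 CPM, and the shares were 30.7% to 50.2% for the FOS genes and 43.5% to 64.4% for the JUN genes. The number of members more than 2-fold apart was 3, with 4 under TMM or DESeq2 size factors, 3 with other totals and 3 after the GC and length adjustment, where they were Fos, Fosl2 and Jund. It was 1 past 4-fold. Of the members, 2 in place of 1 were higher in library 2 with TMM, with DESeq2 size factors and after the adjustment, and 1 in place of 2 was lower after the adjustment. Fosb reversed, from −1.30 to 0.26, in that adjustment. The cause was not tested. Fos stayed between 1.02 and 1.38 and Jund between −3.61 and −3.33 on the log2 scale under these 5 alternatives. Among all counted genes, 4257 were past 2-fold, 7302 with at least 1 count in both libraries, 2713 with at least 100, 10928 without a filter and 1198 past 4-fold, because these settings change the genes or the fold. Those higher in library 2 numbered 772, and 1193 with TMM, 1248 with DESeq2 size factors and 1274 after the adjustment. Those lower numbered 3485, and 2606, 2555 and 1947. After the adjustment, 9.48% of genes were more than 2-fold higher and 14.5% lower. Per kilobase, the BATF genes took 0.610% of the AP-1 level in place of 0.360%. The places of 6 members in place of 2 differed between the libraries with unshared exon bases. The last and the totals without the 14 neutrophil markers were added after seeing the data.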

Other observations

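Among 1719 other genes with a mean of at least 100 CPM, the 3 whose levels in the 2 libraries lay closest to those of Fos were Sparc (3984 and 6215 CPM), Itm2b (4541 and 7215 CPM) and P2ry12 (4575 and 7450 CPM). The distance was Euclidean over log2 CPM, not divided by exon length, 0.52, 0.76 and 0.78, and with 2 libraries such likeness says little. Each of the 3 was higher in library 2, with log2 ratios of 0.64, 0.67 and 0.70. That they share this direction with Fos follows largely from choosing them by closeness to Fos in both libraries. Of the marker lists not yet given, the 4 monocyte genes summed to 222 and 436 CPM. Ly6c2 was the 1 past 2-fold (90.3 and 302 CPM), and the list median log2 ratio was 0.03. Ccr2 was slightly higher in library 2 (65.1 and 76.3 CPM), while Plac8 (63.7 and 56.7 CPM) and Vcan (2.48 and 1.56 CPM) were lower. The 5 B cell genes summed to 569.9 and 777.7 CPM, mostly from Ighm (517 and 720.2 CPM).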
